A study of Mus musculus with 31 samples.

Results

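The Akr1c genes and Akr1d1 encode aldo-keto reductases that reduce or oxidise steroid hormones and bile acid precursors. They were described here in the livers of newborn mice that differed in thyroid hormone supply. The 9 members were taken by gene symbol: Akr1c6, Akr1c12, Akr1c13, Akr1c14, Akr1c18, Akr1c19, Akr1c20, Akr1c21 and Akr1d1, of 43629 genes in the deposited table. The family was chosen by a measured value: Akr1c18 had been seen to differ between pups given T4 alone and pups given vehicle. That contrast is therefore a description for all 9 members, and Akr1c18 was not tested in any contrast that uses the T4 or the vehicle libraries. A filter on low counts kept 8 members, and Akr1c21 fell under it.

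All 31 pups were C57Bl/6J mice with both Dio1 and Dio2 knocked out, the deiodinases that convert T4 to T3, and all were taken at postnatal day 14. The control group carried Dio1KO/Dio2KO/Pax8Het, which retains the thyroid, and received vehicle (n = 5). The other groups were Dio1KO/Dio2KO/Pax8KO, without a thyroid, of which 5 pups received vehicle, 8 received T4, 6 received T3 and 7 received T3+T4. Injections were given every other day from postnatal day 2, and no dose is given in the sources used here. The labels name no tissue restriction of the knockouts, and control pups differ from the others in thyroid and Pax8 genotype together.

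AKR1C enzymes use NADPH or NAD to interconvert keto and hydroxy groups on steroids, so they set how much active hormone a tissue keeps. Akr1c18 converts progesterone to a weakly active hydroxy metabolite and is best known from the corpus luteum, where its rise ends progesterone action. Akr1c6 reduces androstenedione to testosterone, Akr1c14 reduces dihydrotestosterone to a weak androgen, and Akr1c21 acts on androgens and is abundant in kidney. Akr1d1 reduces a double bond in the steroid A ring, a step that bile acid synthesis and the clearance of steroid hormones in the liver share. T4 is largely a precursor, and T3 acts through nuclear receptors that bind paired copies of the hexamer AGGTCA.

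The 8 Akr1c members lie together on chromosome 13 (mm10), between positions 4049011 and 4586541, a span that holds no other protein-coding gene in GENCODE M21. Akr1c18 (ENSMUSG00000021214) occupies 4132615 to 4150654 on the minus strand with 1207 exonic bases. Akr1d1 (ENSMUSG00000038641) lies elsewhere, on the plus strand of chromosome 6 from 37530173 to 37568815. The coding sequences of the Akr1c members were 71.1% to 96.2% identical to each other, and Akr1d1 was 58.5% to 63.7% identical to them. Akr1c12 and Akr1c13 were the closest pair at 96.2%, and 37.2% of their 50-base coding windows were the same in both. Akr1c6 and Akr1c20 were 92.3% identical and shared 3.04% of such windows. Reads of these pairs could have been split or assigned to the wrong copy, so their separate values are uncertain. Akr1c18 was at most 76.8% identical to any other Akr1c member and shared no 50-base coding window with one.

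RefSeq promoters (GRCm38.p6, 250 bases before to 50 bases after the start) were at hand for 8 members, all but Akr1c20. The first is shown because Akr1c18 is the member that differed most between the groups, the next pair because Akr1c12 and Akr1c13 have nearly one sequence, and the last because it also holds the hexamer, in a gene whose group means stayed close together. They are written 5′ to 3′ on the gene's strand, and capitals mark AGGTCA or its reverse complement TGACCT.

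Akr1c18, chr13:4150597-4150896, minus strand: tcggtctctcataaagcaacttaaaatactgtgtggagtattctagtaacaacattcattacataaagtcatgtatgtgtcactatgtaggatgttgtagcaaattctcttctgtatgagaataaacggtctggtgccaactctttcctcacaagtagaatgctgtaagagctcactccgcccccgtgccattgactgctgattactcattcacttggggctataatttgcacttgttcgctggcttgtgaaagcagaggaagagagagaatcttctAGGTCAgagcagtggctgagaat

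Akr1c12, chr13:4279350-4279649, minus strand: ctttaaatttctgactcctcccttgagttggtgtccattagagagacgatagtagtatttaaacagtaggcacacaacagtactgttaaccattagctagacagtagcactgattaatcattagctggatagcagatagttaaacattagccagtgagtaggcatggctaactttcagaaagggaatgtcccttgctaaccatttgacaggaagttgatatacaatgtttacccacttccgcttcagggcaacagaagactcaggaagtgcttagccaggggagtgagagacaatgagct

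Akr1c13, chr13:4190937-4191236, plus strand: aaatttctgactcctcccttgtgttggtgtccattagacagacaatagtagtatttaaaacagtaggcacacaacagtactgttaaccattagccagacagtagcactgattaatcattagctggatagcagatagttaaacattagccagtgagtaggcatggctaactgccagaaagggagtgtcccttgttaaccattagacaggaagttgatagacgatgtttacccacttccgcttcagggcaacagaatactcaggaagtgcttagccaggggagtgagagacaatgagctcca

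Akr1d1, chr6:37529923-37530222, plus strand: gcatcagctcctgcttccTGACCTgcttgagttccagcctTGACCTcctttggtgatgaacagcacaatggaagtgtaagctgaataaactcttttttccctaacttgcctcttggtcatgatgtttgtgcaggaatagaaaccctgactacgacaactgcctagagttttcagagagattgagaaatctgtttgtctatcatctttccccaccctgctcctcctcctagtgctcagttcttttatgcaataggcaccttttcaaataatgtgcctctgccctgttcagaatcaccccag

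The Akr1c18 window holds AGGTCA once, on the gene's strand, 27 bases after the start. The Akr1d1 window holds it as TGACCT at 2 places, 232 and 210 bases before the start. The other 6 windows hold it on neither strand. Of 32851 mouse promoters of the same length, 16.3% hold the hexamer on either strand. The direct repeat of a thyroid hormone response element, AGGTCA followed by any 4 bases and AGGTCA again, is in none of the 8 windows and in 0.015% of all promoters. The Akr1c12 and Akr1c13 windows were 95.9% identical over 296 aligned bases, and the next closest pair, Akr1c13 and Akr1c19, was 61.2% identical.

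Totals ran from 4383769 to 7158919 counts per library and lay higher, with overlap, in the T3 group (5237993 to 6580814) and the T3+T4 group (5531724 to 7158919) than in the vehicle group (4901954 to 5625282). The lowest value in every library is 1, so 1 was added to each count before deposit. Dio1, which still gave reads in these knockouts, had 776 to 1035 counts in the control group, 42 to 91 with vehicle, 82 to 369 with T4, 311 to 1260 with T3 and 690 to 1504 with T3+T4. Dio2 had 4 to 47 counts and Pax8 2 to 28 in any library, too few to check the genotypes. Summed reads of 8 hepatocyte markers were 31122 to 38898 in every library. A levelling off of high counts, described below, could hold such sums down, so they do not show that hepatocyte content was alike. T3 animals 60 and 61 stood apart, with 2447 and 178 summed reads of 7 adrenal cortex markers against 28 to 73 in the other libraries. Summed muscle marker reads differed between groups. The median was 8 in the control group (highest 11) and 8 with vehicle (highest 36). It was 91 with T4 (highest 1085), 138 with T3 (highest 2095) and 31 with T3+T4 (highest 457). T4 animals 40, 43 and 46 had 10, 7 and 8 reads, and the T4 animals numbered 54 to 71 had 62 to 1085. Control animal 59 and vehicle animals 55 and 67 had 8, 36 and 5. Animals 54 to 85 hold only 1 control and 2 vehicle libraries, so animal number and treatment cannot be fully told apart. Summed acinar marker reads were at most 66 with T4 and 81 with T3, but reached 483 in the control group, 1191 with vehicle and 1479 with T3+T4, each time in a minority of libraries. By sex-linked genes, 4 of 5 control, 2 of 5 vehicle, 2 of 8 T4, 5 of 6 T3 and 2 of 7 T3+T4 pups were female, and for 4 animals this went against the sex in the table's headers.

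Akr1c18 was nearly silent in the vehicle group and present in every treated group. The 5 vehicle libraries held 8, 17, 20, 21 and 27 counts, and the 5 control libraries 18, 125, 169, 227 and 241. In T4 pups the lowest library had 51 counts, the median was 116 and the highest had 177. T3 pups ran from 118 over a median of 330.5 to 568, and T3+T4 pups from 233 over 291 to 470. All 21 treated libraries were thus above all 5 vehicle libraries, while 1 control library lay within the vehicle range.

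In counts per 1000000 library counts after scaling by trimmed mean of M-values (CPM), Akr1c18 averaged 29.9 ± 18.2 in the control group (SD, n = 5) and 3.56 ± 1.24 with vehicle (SD, n = 5). It averaged 21.2 ± 7.57 with T4 (SD, n = 8), 54.5 ± 27.6 with T3 (SD, n = 6) and 50.7 ± 14.8 with T3+T4 (SD, n = 7). The order from lowest to highest was vehicle, T4, control, T3+T4 and T3. Of the neighbours in that order, vehicle and T4 do not overlap, T4 and control overlap, control and T3+T4 overlap, and T3+T4 and T3 overlap.

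**Figure D1:**
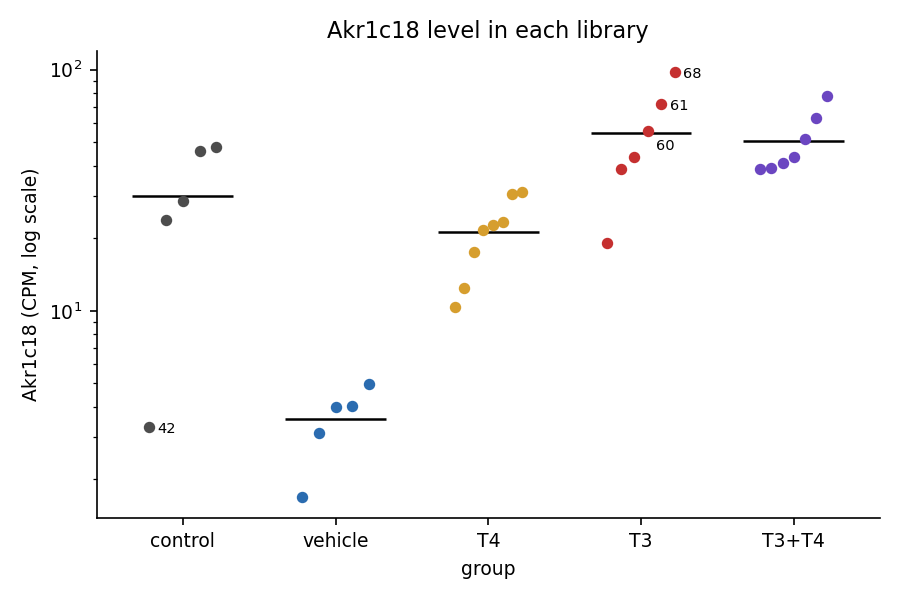
Akr1c18 in CPM (log axis) in each library, sorted by value within each group, with a bar at the group mean. All T4, T3 and T3+T4 libraries sit above the 5 vehicle libraries, and control animal 42 sits at 3.30 CPM, among the vehicle libraries.

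Akr1c18 was 8.25-fold lower with vehicle than in the control group, a fitted log2 difference of -3.04 ± 0.51 (SE). Control animal 42, with 3.30 CPM against 23.8 to 47.6 in the other 4 controls, made the groups overlap. Without it the control mean was 36.5 ± 12.1 CPM (SD, n = 4) and the log2 difference -3.34. Dio1 does not set this animal apart: it had 805 counts, within the range of the other controls.

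T4 alone went with a 5.91-fold higher level of Akr1c18 than vehicle, 2.56 ± 0.49 on the log2 scale. The lowest T4 library, at 10.4 CPM, was above the highest vehicle library, at 4.97 CPM. The T3 group was 15.1-fold above vehicle (log2 3.91 ± 0.49) and the T3+T4 group 14-fold (log2 3.81 ± 0.49). These 3 differences share the same 5 vehicle libraries. Among animals numbered 54 to 85, of whom 19 of 21 have a sex in their header against 1 of the other 10, the differences from vehicle were 2.52 for T4, 3.999 for T3 and 3.90 for T3+T4, with 2 vehicle libraries. Without the 12 libraries in which acinar or muscle markers were raised, they were 2.56, 4.12 and 3.50.

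Akr1c18 was lower with T4 than with T3, by a log2 difference of -1.35 ± 0.34, and these groups overlap because T3 animal 64 had 19.0 CPM. It was higher with T3+T4 than with T4, by 1.25 ± 0.33 on the log2 scale, and there the groups do not overlap, at 38.9 CPM or more against 31.2 CPM or less. The T3 by T4 interaction, the difference between the T3 effect with and without T4, was -2.67 ± 0.59 on the log2 scale. The combined rise over vehicle in Akr1c18 was close to that with T3 alone and not the sum of the separate log2 differences. The T4-against-vehicle difference, by which Akr1c18 was chosen, enters the interaction with a minus sign. That choice favours a negative value, so the interaction is a description and was not tested.

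Only 3 comparisons of Akr1c18 used neither the T4 nor the vehicle libraries, and none passed the edgeR quasi-likelihood test with Benjamini-Hochberg adjustment at 0.05. T3+T4 against T3 differed by -0.10 ± 0.34 on the log2 scale (adjusted p = 0.9275), with a 95% interval from -0.80 to 0.60. T3 against control differed by 0.87 ± 0.39 (adjusted p = 0.2433), with an interval from 0.08 to 1.66. T3+T4 against control differed by 0.77 ± 0.38 (adjusted p = 0.697). Across the other settings tried, the adjusted p of T3 against control ranged from 0.1879 to 0.8647, and without control animal 42 the log2 difference was 0.58. These intervals leave room for a difference in either direction between T3+T4 and T3, and the misses do not show that the levels were alike.

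Akr1c18 also varied more within groups than most genes. Its SD around the group means was 0.82 on the log2 CPM scale, and 96.3% of the 17057 genes tested had a smaller one. Its highest library was 57.6 times its lowest. In the T3+T4 group the 2 females had 63.2 and 77.7 CPM and the 5 males 38.9 to 51.7 CPM. In the T4 group the 2 females (17.5 and 22.8 CPM) lay inside the range of the 6 males (10.4 to 31.2 CPM). In the T3 group the 1 male had 38.9 CPM and the 5 females 19.0 to 97.8 CPM. The 2 T3+T4 females (animals 78 and 85) and animal 79, at 51.7 CPM, also had 1479, 352 and 569 acinar reads. The other T3+T4 libraries had 17 to 54. Sex and acinar reads cannot be told apart in that group, and neither was tested. Vehicle animals 37 and 2019, with 1191 and 363 acinar reads, had 3.10 and 4.01 CPM, inside the range of the other vehicle libraries.

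The adrenal cortex markers moved with 2 of the T3 libraries. T3 animal 60 had 631 reads of Cyp11b1, the last enzyme of glucocorticoid synthesis, and 405 of Cyp21a1, and animal 61 had 34 and 33. No other library had more than 6 reads of Cyp11b1 or 13 of Cyp21a1. Akr1c18 stood at 55.6 CPM in animal 60 and 71.9 CPM in animal 61, inside the range of the other 4 T3 libraries. Without both animals the T3 mean was 49.8 ± 33.7 CPM (SD, n = 4), with a range from 19.0 to 97.8 CPM, and the log2 difference from vehicle was 3.79. The highest T3 library, animal 68, had 44 summed marker reads. Kidney tubule markers summed to 3 to 16 reads and ovary and testis markers to 7 to 43 reads in every library.

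**Figure D2:**
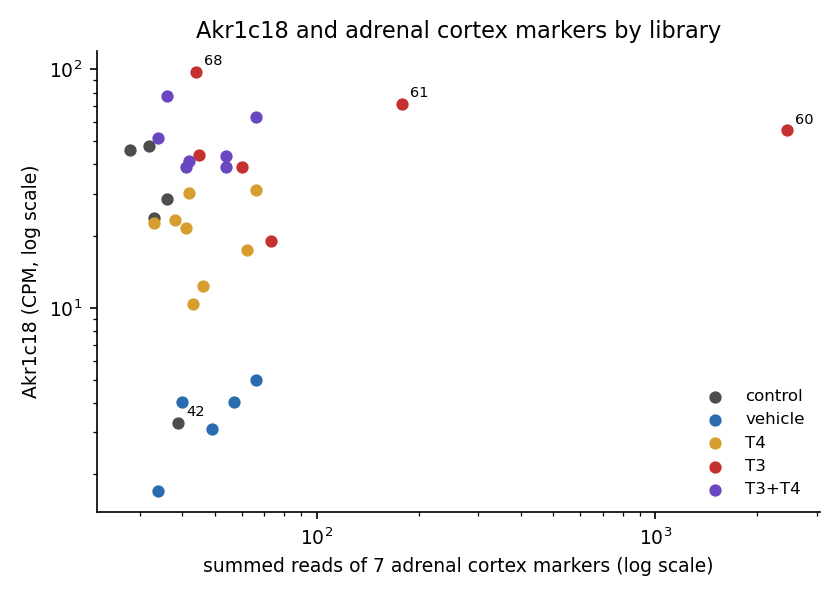
Akr1c18 in CPM against the summed reads of 7 adrenal cortex markers in each library, both on log axes, coloured by group. T3 animals 60 and 61 lie far to the right at 2447 and 178 reads, while their Akr1c18 level is inside the range of the other T3 libraries, and control animal 42 is low at 39 reads.

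The other members kept to a far narrower range. Their fitted differences from vehicle with T4 ran from -0.23 (Akr1c14) to 0.05 (Akr1c20) on the log2 scale, with a median of -0.05 over 7 members beside 0.00 over all genes tested. Vehicle against control gave a median of -0.03 over 7 members, from -0.33 (Akr1c20) to 0.74 (Akr1c19), beside 0.01 over all genes. T3 against vehicle gave a median of -0.13, from -0.43 (Akr1c14) to -0.01 (Akr1c20), beside 0.00 over all genes. T3+T4 against vehicle gave a median of 0.02, from -0.39 (Akr1c19) to 0.24 (Akr1c20), beside 0.00 over all genes.

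**Figure D3:**
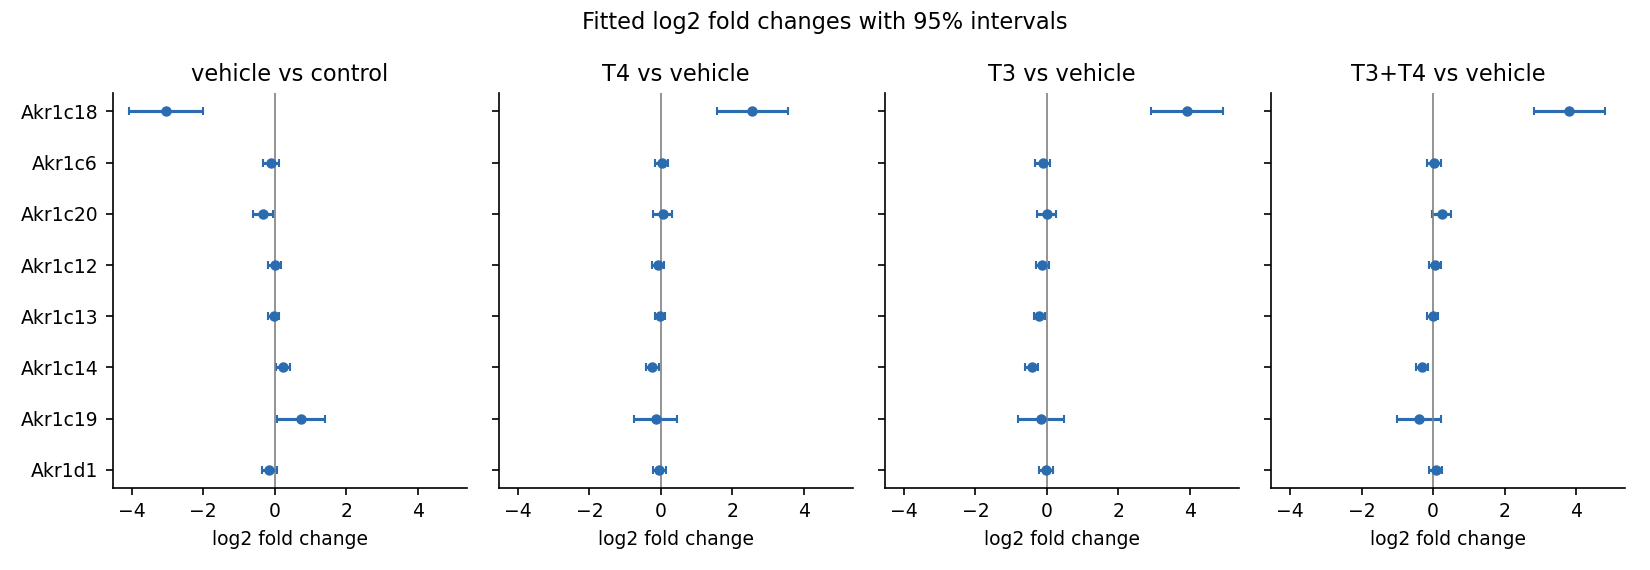
Fitted log2 fold changes (points) with 95% intervals (bars) for the 8 members that passed the filter, in 4 comparisons that share the vehicle libraries. Akr1c18 stands at -3.04, 2.56, 3.91 and 3.81, and the other members lie between -0.43 and 0.74. Akr1c18 was tested in none of the 4 comparisons and no member in T4 against vehicle. The bars there are descriptions and not tests against 0.

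By edgeR's quasi-likelihood test, 0 of 7 members passed an adjusted p of 0.05 in vehicle against control, where 9.63% of all genes tested did. At an unadjusted p under 0.05 there were 3, Akr1c14, Akr1c19 and Akr1c20, a level for which no share over all genes is given here. DESeq2 also called 0. In T3 against vehicle 1 of 7 passed, Akr1c14, beside 6.77% of all genes. The same member was the 1 of 7 in T3+T4 against vehicle, beside 15.8% of all genes. DESeq2 called 1 in each of these comparisons. No share here stands clear of the background.

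No member was called in the remaining comparisons, by edgeR or by DESeq2. In T3+T4 against control DESeq2 gave no adjusted p for 5 members (Akr1c12, Akr1c13, Akr1c18, Akr1c19 and Akr1c20), so it could not call them. T4 against T3 had 0 of 7 beside 0.551% of all genes, with 2 at an unadjusted p under 0.05. T3+T4 against T4 had 0 of 7 beside 8.61%, with 0 at the unadjusted level. T3+T4 against T3 had 0 of 8 beside 0.0117%, with 2 at that level. T4 against control had 0 of 7 beside 3.54%, with 2, and T3 against control 0 of 8 beside 0.211%, with 5. T3+T4 against control had 0 of 8 beside 0%, with 0 at the unadjusted level. The T3 by T4 interaction had 0 of 7 beside 0.135%, with 3. All these percentages are shares at the adjusted level. The counts at the unadjusted level have no share over all genes beside them, so they show no excess among the members.

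Akr1c14, the dihydrotestosterone-reducing member, was the one called. It occupies 4049011 to 4090688 on the plus strand of chromosome 13. The 5 vehicle libraries had 399, 440, 446, 468 and 512 CPM and the 5 control libraries 365, 373, 387, 394 and 406 CPM. T3 libraries ran from 239 over a median of 355 to 385 CPM and T3+T4 libraries from 335 over 364 to 397 CPM. The vehicle group had the highest mean. Its range overlapped those of the control group and of the T4 group, which reached 447 CPM, but not those of the T3 and T3+T4 groups.

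Akr1c14 fell with T3 by 0.43 ± 0.09 on the log2 scale against vehicle (edgeR adjusted p = 0.003984), from 453 ± 41.4 CPM (SD, n = 5) to 336 ± 55 CPM (SD, n = 6). It fell with T3+T4 by 0.31 ± 0.09 (edgeR adjusted p = 0.01332), to 366 ± 23 CPM (SD, n = 7). With T4 it averaged 385 ± 37.1 CPM (SD, n = 8), a log2 difference from vehicle of -0.23 that was not tested, and in the control group 385 ± 16.6 CPM (SD, n = 5). Vehicle against control was 0.24 ± 0.09 on the log2 scale, which missed the threshold (edgeR adjusted p = 0.1061). That comparison passed in 3 of 46 other settings. These were without T3 animal 61 (adjusted p = 0.03342), without both T3 animals 60 and 61 (adjusted p = 0.02527) and in a fit of only the groups compared (adjusted p = 0.04702). Over the settings its log2 difference ran from 0.14, in animals 54 to 85 only, to 0.31. Akr1c14 in T3 animal 61 was the lowest of all libraries, at 239 CPM. Without animals 60 and 61 Akr1c14 still fell with T3, by 0.30 on the log2 scale (adjusted p = 0.02659). Its exons share 234 bases with Gm18857, a pseudogene on the same strand, and how such reads were counted is not given in the sources used here.

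Both falls of Akr1c14 lost their call in 3 settings. In animals 54 to 85 only the log2 differences were -0.43 for T3 and -0.30 for T3+T4, and without the 12 libraries with raised acinar or muscle markers they were -0.46 and -0.37, as large as with all libraries. With log2 library total as a covariate they were smaller, -0.30 for T3 and -0.14 for T3+T4. The T3 call was also lost in a fit of only the groups compared, at -0.43, and the T3+T4 call with no filter on low counts, at -0.24. Over all settings the adjusted p ranged from 0.0004302 to 0.141 for T3 and from 0.001437 to 0.3575 for T3+T4, and every fitted log2 difference was below 0.

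Akr1c6, the testosterone-forming member (4434306 to 4457877, plus strand), averaged 241 ± 12.1 CPM in the control group (SD, n = 5) and 224 ± 17.5 CPM with vehicle (SD, n = 5). The T4, T3 and T3+T4 means were 227, 206 and 227 CPM, and every group overlapped every other. Its log2 difference from vehicle was -0.12 ± 0.10 with T3 (edgeR adjusted p = 0.5102). Akr1c20 (4486849 to 4523345, minus strand), its close copy, averaged 166 ± 10.8 CPM in the control group (SD, n = 5) and 132 ± 22.3 CPM with vehicle (SD, n = 5). The vehicle-against-control difference of Akr1c20, -0.33 ± 0.14 on the log2 scale, missed the threshold (edgeR adjusted p = 0.1444), with 95% bounds of -0.62 and -0.04.

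Akr1c12 (4268176 to 4279433, minus strand) and Akr1c13 (4191150 to 4205596, plus strand) had nearly equal levels in all groups. Akr1c12 means ran from 59.3 CPM with T3 to 66.7 CPM with T3+T4, and Akr1c13 means from 58.5 CPM with T3 to 69.3 CPM in the control group. Akr1c13 had the smallest within-group SD of the tested members, 0.12 on the log2 scale. In T3 against vehicle it differed by -0.22 ± 0.08 (edgeR adjusted p = 0.07707), which passed when T3 animal 62 (adjusted p = 0.03341) or vehicle animal 67 (adjusted p = 0.04013) was left out. Over all settings that adjusted p ranged from 0.03341 to 0.4306. In T3 against control Akr1c13 differed by -0.25 ± 0.08 (edgeR adjusted p = 0.1089) and passed without T3 animal 62 (adjusted p = 0.04912), with a range up to 0.8647 over the settings.

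Akr1c19 (4228700 to 4252843, plus strand) varied most after Akr1c18, with a within-group SD of 0.56 on the log2 scale. The 5 control libraries had 16.6, 18.5, 20.5, 35.2 and 36.4 CPM and the 5 vehicle libraries 20.6, 26.5, 37.6, 60.7 and 67.3 CPM. The groups overlap, and the log2 difference of 0.74 ± 0.33 missed the threshold (edgeR adjusted p = 0.1619), with a 95% interval from 0.05 to 1.42. Its T4, T3 and T3+T4 means were 38.5, 38.0 and 32.5 CPM. Of its exonic bases, 291 are shared with the pseudogene Marcksl1-ps4 on the same strand.

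Akr1d1, the A-ring reductase of bile acid synthesis, averaged 421 ± 22.4 CPM in the control group (SD, n = 5) and 380 ± 46.8 CPM with vehicle (SD, n = 5). Its T4, T3 and T3+T4 means were 367, 373 and 397 CPM, and all groups overlapped. Vehicle against control was -0.15 ± 0.10 on the log2 scale (edgeR adjusted p = 0.3617), and T3 against vehicle was -0.03 ± 0.09 (edgeR adjusted p = 0.904). With log2 library total as a covariate Akr1d1 was called higher with T3+T4 than with vehicle (0.29 on the log2 scale, adjusted p = 0.03275) and than with T4 (0.33, adjusted p = 0.01745).

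Akr1c21 (4574075 to 4586541, plus strand) was at 1 to 7 counts in every library, and 3 libraries were at 1. After subtraction of the added 1 it had 67 reads over the 31 libraries, at most 6 in any of them. No difference in Akr1c21 was detectable at this depth.

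**Figure D4:**
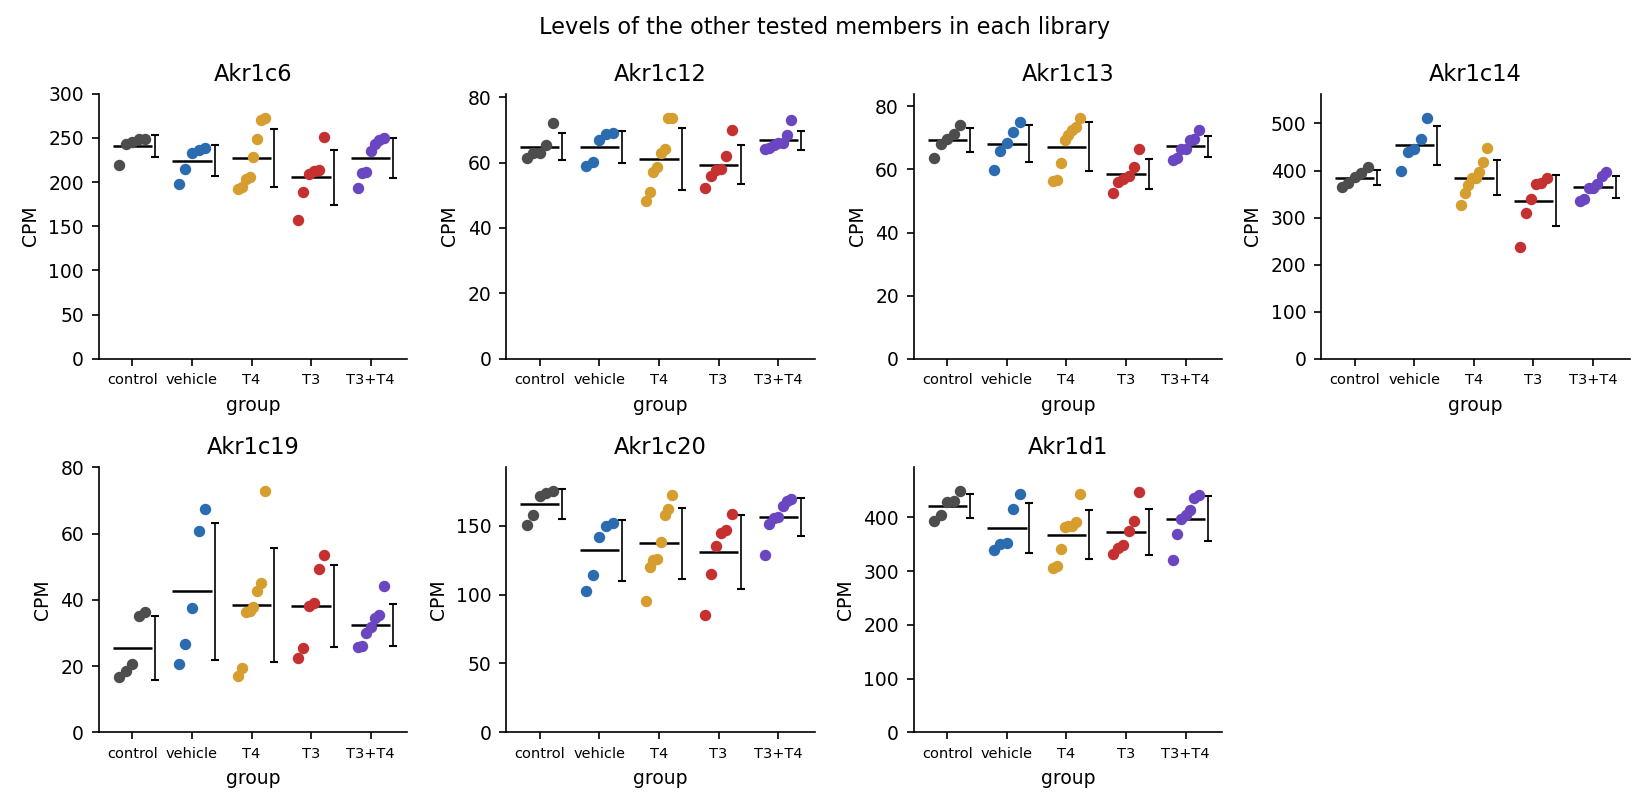
CPM of 7 members in each library, sorted by value within each group, on axes that start at 0, with a bar at the group mean and a line for ± 1 SD. For Akr1c14 the vehicle group, at 399 to 512 CPM, has the highest mean. It overlaps the control and T4 groups but not the T3 and T3+T4 groups. For the other 6 members the 5 groups overlap.

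Per kilobase of annotated exon, the highest mean levels over the 31 libraries were those of Akr1d1 (133 CPM per kilobase), Akr1c14 (118) and Akr1c6 (111). Akr1c20 followed at 77.4 CPM per kilobase, Akr1c12 at 50.1, Akr1c13 at 46.0, Akr1c18 at 27.2, Akr1c19 at 6.04 and Akr1c21 at 0.369. Divided instead by the shortest transcript that holds the whole coding sequence, Akr1c6 led with 161 CPM per kilobase, before Akr1c14 with 157 and Akr1d1 with 143, and Akr1c19 rose to 28.7, just above Akr1c18 at 27.4. The order of the top 3, and that of Akr1c18 and Akr1c19, thus depends on the length used. Counts in this table appear to level off near 2 per exonic base, which was used as a setting. Akr1d1, Akr1c14 and Akr1c6 averaged 0.75, 0.66 and 0.62 counts per exonic base, so their levels and differences may be understated. With a correction for that ceiling by transcript length, Akr1c14 stood at 0.31 in vehicle against control and -0.30 in T4 against vehicle. Without it these log2 differences were 0.24 and -0.23.

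Akr1c18 made up a changing part of the family's summed CPM per kilobase of exon. Its share was 4.06% ± 2.40 in the control group (SD, n = 5), 0.542% ± 0.229 with vehicle (SD, n = 5), 3.27% ± 1.32 with T4 (SD, n = 8), 8.35% ± 4.26 with T3 (SD, n = 6) and 7.08% ± 1.98 with T3+T4 (SD, n = 7). With T3 this share was above that of Akr1c13 (7.52%) and just under that of Akr1c12 (8.68%). It was below those of Akr1c20 (12.9%), Akr1c6 (18.6%) and Akr1d1 (23.7%). Per kilobase of transcript its T3 share was 6.63%, just under Akr1c13 at 6.72% and Akr1c12 at 6.83%. Akr1c14 had its largest share with vehicle, at 24.9% ± 1.13 (SD, n = 5), and 19.0% ± 2.28 with T3 (SD, n = 6). In bulk liver RNA, fewer cells that express a gene and less RNA per cell cannot be told apart.

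Within groups, some members varied together from animal to animal. After group means were removed, Pearson's r over the 31 libraries was 0.91 for Akr1c6 and Akr1c20, 0.84 for Akr1c12 and Akr1c13, 0.77 for Akr1c6 and Akr1c14, and 0.74 for Akr1c6 and Akr1d1. These values share the libraries' depth and scaling, and the first pairs are the near-identical copies. Akr1c18 did not follow them, with r between -0.36 and 0.06 for its 7 pairs. Between the pair Akr1c12 and Akr1c13 and the pair Akr1c6 and Akr1c20, r was 0.15, 0.35, 0.43 and 0.54.

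**Figure D5:**
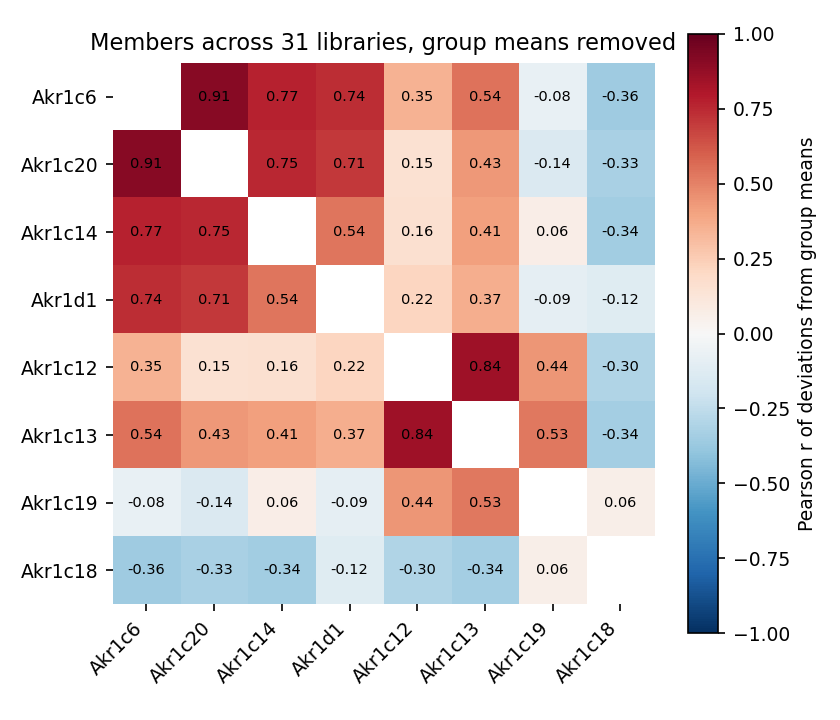
Pearson's r between members of log2 CPM deviations from group means over 31 libraries, red for positive and blue for negative values. Akr1c6, Akr1c20, Akr1c14 and Akr1d1 form a block of 0.54 to 0.91, Akr1c12 and Akr1c13 reach 0.84, and Akr1c18 has no value above 0.06.

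Among all genes tested, those whose log2 CPM followed Akr1c18 most closely over the 31 libraries were Cdh1 (r = 0.86), Abhd6 (0.86), Igsf11 (0.86), Pi4k2b (0.85) and Me1 (0.85). With group means removed r was 0.83 for Cdh1, 0.64 for Pi4k2b, 0.62 for Me1, 0.55 for Igsf11 and 0.48 for Abhd6. Cdh1 encodes E-cadherin, the adhesion protein of epithelial cells, and Me1 the cytosolic malic enzyme that makes NADPH. So only the likeness of Cdh1 among these 5 was nearly as high between animals of one group as over all groups.

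The nearest genes of the other members were different ones. Akr1c6 was followed most closely by Adh1 (r = 0.93 over the 31 libraries), Rgn (0.91) and Cyp1a2 (0.91), and Akr1c20 by Nptx1 (0.92), Timd2 (0.91) and Cyp1a2 (0.90). Akr1c14 was nearest to Zadh2 (0.87), Acads (0.86) and Nadk2 (0.86), and Akr1d1 to Cers2 (0.90), Ugt2b36 (0.90) and Selt (0.89). Akr1c12 was nearest to Akr1c13 (0.79), Agmo (0.79) and N4bp2 (0.74), and Akr1c13 to Agmo (0.87), Il1rap (0.83) and Cyp4v3 (0.83). Akr1c19 was nearest to Pir (0.81), Aox1 (0.81) and Nqo1 (0.81). Nqo1 encodes a quinone reductase of the oxidative stress response. These correlations are descriptions over libraries that share their groups.

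The wider steroid hormone pathway was taken from a list of 33 enzymes, of which 24 were tested. In T3 against vehicle 3 rose and 4 fell, where 6.77% of all genes were called, with a median log2 difference of -0.09 beside 0.00 over all genes. Hsd17b6, a retinol and hydroxysteroid dehydrogenase, fell by 0.67 ± 0.11 on the log2 scale, from 269 to 169 CPM (edgeR adjusted p = 0.0004414). Rdh16 fell by 0.59 ± 0.12, from 340 to 226 CPM (edgeR adjusted p = 0.002642). Hsd17b13, a lipid droplet protein, fell by 0.47 ± 0.07 (edgeR adjusted p = 0.0001825). Hsd11b1, which regenerates active glucocorticoid in the liver, fell by 0.32 ± 0.06 (edgeR adjusted p = 0.002497). Over all genes, 602 rose and 553 fell with all libraries, and 264 and 174 without T3 animals 60 and 61. These were 152 and 123 in a fit of only the groups compared, and 46 and 37 without raised acinar or muscle markers. Of the 24 enzymes 5 were called without T3 animals 60 and 61 in place of 7, these 4 among them. The count was 4 in a fit of only the groups compared, 3 without raised acinar or muscle markers and 0 in animals 54 to 85 only.

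The same 4 enzymes led T3+T4 against vehicle, where 1 of 24 rose and 6 fell beside 15.8% of all genes called, with a median of -0.10 beside 0.00 over all genes. In animals 54 to 85 only 3 were called. Rdh16 fell by 0.68 ± 0.11 (edgeR adjusted p = 0.0001372) and Hsd17b6 by 0.58 ± 0.10 (edgeR adjusted p = 0.0003888). In vehicle against control 3 rose and 1 fell beside 9.63% of all genes called, with a median of 0.11 beside 0.01 over all genes. Rdh16 was higher with vehicle by 0.60 ± 0.12 (edgeR adjusted p = 0.002045), Hsd17b6 by 0.48 ± 0.11 (edgeR adjusted p = 0.007705) and Hsd17b13 by 0.31 ± 0.08 (edgeR adjusted p = 0.009235). Hsd17b12 was lower by a log2 difference of -0.29 ± 0.09 (edgeR adjusted p = 0.03556), a call lost without any 1 of control animals 49 and 50 and vehicle animals 37 and 38. As for Akr1c14, the means of Rdh16 and Hsd17b6 were higher with vehicle than in the control, T3 and T3+T4 groups. The vehicle-against-control count was 7 without T3 animals 60 and 61, with DESeq2, in a fit of only the groups compared and with the library total as a covariate. It was 2 without raised acinar or muscle markers and 0 in animals 54 to 85 only, which hold 1 control.

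T4 against vehicle was not tested for these lists, and its median over the 24 enzymes was -0.11 beside 0.00 over all genes. In T4 against T3, 2 of 24 were higher and 2 lower beside 0.551% of all genes called. The count was 0 without T3 animals 60 and 61, and also with sex as a covariate. It was 0 as well in a fit of only the groups compared, with the library total as a covariate and without raised acinar or muscle markers. Over all genes 27 were higher and 67 lower with all libraries, and 3 and 4 with sex as a covariate. By sex-linked genes 2 of 8 T4 and 5 of 6 T3 pups were female. Sult1e1, the estrogen sulfotransferase, had a log2 difference of -4.40 ± 0.79 (edgeR adjusted p = 0.006904) that rested on T3 animal 61 at 96.8 CPM, against 0.746 to 8.70 CPM in the other 5 T3 libraries. Without animal 61 the log2 difference of Sult1e1 was -2.02 (adjusted p = 0.1056), and without animals 60 and 61 it was -2.29 (adjusted p = 0.06936). Of the other 5 T3 libraries 4 still lay above every T4 library, which had 0.524 to 1.43 CPM. Over all settings its adjusted p ran from 3.523e-06 to 0.1936. Star, the cholesterol carrier of steroid-making cells and one of the adrenal markers, had a log2 difference of -2.03 ± 0.48 (edgeR adjusted p = 0.0466). Star stood at 122 CPM in T3 animal 60 and 14.5 CPM in animal 61, and without both the log2 difference was 0.02. Hsd17b13 (log2 0.31) and Hsd17b6 (log2 0.42) were the 2 higher ones. Without animals 60 and 61 their differences stayed about as large, 0.30 and 0.36, but missed the threshold (adjusted p = 0.1788 and 0.3179). With sex as a covariate they were 0.25 and 0.35 and missed it too (edgeR adjusted p = 0.1911 and 0.2284).

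Of 16 bile acid synthesis enzymes, the pathway that Akr1d1 serves, 14 were tested. In T3+T4 against vehicle 4 rose and 3 fell, 7 of 14 beside 15.8% of all genes called, with a median of 0.00, the same as over all genes. The count was 4 with the library total as a covariate, 3 in animals 54 to 85 only and 2 without raised acinar or muscle markers. Acox2, which shortens the bile acid side chain, fell by 0.49 ± 0.07 (edgeR adjusted p = 5.981e-05), Scp2 by 0.26 ± 0.06 (edgeR adjusted p = 0.005729) and Slc27a2 by 0.24 ± 0.07 (edgeR adjusted p = 0.0114). Cyp8b1, the hydroxylase for cholic acid, rose by 0.42 ± 0.11 (edgeR adjusted p = 0.008325). With the library total as a covariate Scp2 stood at -0.06 (adjusted p = 0.4021), Slc27a2 at -0.21 (adjusted p = 0.08963) and Cyp8b1 at 0.33 (adjusted p = 0.1092), while Acox2 was called in all settings. Without raised acinar or muscle markers Scp2 at -0.32 and Cyp8b1 at 0.52 missed the threshold, as did Scp2 at -0.26 in animals 54 to 85 only. The Slc27a2 call was also lost without vehicle animal 67 and with no filter on low counts. In vehicle against control 1 rose and 2 fell beside 9.63% of all genes called, with a median of -0.06, and in animals 54 to 85 only 0 were called. Acox2 was higher by 0.33 ± 0.08 (edgeR adjusted p = 0.009888), Cyp8b1 lower at -0.56 ± 0.12 (edgeR adjusted p = 0.002774) and Cyp2c70 lower at -0.46 ± 0.15 (edgeR adjusted p = 0.04934). The Cyp2c70 call was lost on leaving out any 1 of 20 libraries.

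T3 against vehicle called 3 of the 14 bile acid enzymes, 1 higher and 2 lower, beside 6.77% of all genes, with a median of 0.13. Acox2 fell by 0.40 ± 0.08 (edgeR adjusted p = 0.002327), also without T3 animals 60 and 61. Cyp27a1, which starts the acidic pathway, had a log2 difference of 0.70 ± 0.18 (edgeR adjusted p = 0.01648), and Scp2 one of -0.24 ± 0.06 (edgeR adjusted p = 0.02621). The count was 1 without T3 animal 61 and 1 without animals 60 and 61, where Cyp27a1 stood at 0.51 (adjusted p = 0.08589) and Scp2 at -0.18 (adjusted p = 0.1584). It was also 1 in a fit of only the groups compared and with the library total as a covariate, and 0 in animals 54 to 85 only and without raised acinar or muscle markers. In T4 against T3 Cyp27a1 was the 1 called, at -0.71 ± 0.16 (edgeR adjusted p = 0.0281), with a median of 0.05 over the list. Without animals 60 and 61 Cyp27a1 missed the threshold at -0.51 (adjusted p = 0.2663). With sex as a covariate it missed at -0.72 (edgeR adjusted p = 0.1369).

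Of 11 other aldo-keto reductases 10 were tested. Akr1b3, the aldose reductase that makes sorbitol, rose by 0.83 ± 0.14 with T3+T4 over vehicle, from 7.83 to 14.0 CPM (edgeR adjusted p = 0.0002437). Akr7a5, an aflatoxin aldehyde reductase, fell by 0.27 ± 0.06 in the same comparison (edgeR adjusted p = 0.004663). These were the 2 called of 10, beside 15.8% of all genes, and the list's median was 0.04 beside 0.00 over all genes. Akr1b3 was called in all settings, and Akr7a5 was not in animals 54 to 85 only, with no filter on low counts, with the library total as a covariate or without raised acinar or muscle markers. In T3 against vehicle Akr1b10 (log2 0.75 ± 0.17, edgeR adjusted p = 0.009027), Akr1b3 (0.53 ± 0.15, edgeR adjusted p = 0.02818) and Akr7a5 (-0.32 ± 0.07, edgeR adjusted p = 0.004616) passed, beside 6.77% of all genes, with a median of 0.08. Without T3 animals 60 and 61 none of the 3 passed, at 0.64 for Akr1b10 (adjusted p = 0.05256), 0.53 for Akr1b3 (adjusted p = 0.08794) and -0.24 for Akr7a5 (adjusted p = 0.05753). The count was also 0 in animals 54 to 85 only and without raised acinar or muscle markers, and 1 in a fit of only the groups compared and with the library total as a covariate. In vehicle against control Akr1b3 was lower (-0.58 ± 0.16, edgeR adjusted p = 0.01628) and Akr7a5 higher (0.22 ± 0.07, edgeR adjusted p = 0.04124), beside 9.63% of all genes, with a median of 0.00. The Akr7a5 call was lost on leaving out any 1 of 20 libraries. The Akr1b3 call was lost without control animal 49, control animal 50 or vehicle animal 38, in a fit of only the groups compared, in animals 54 to 85 only and without raised acinar or muscle markers, with an adjusted p of up to 0.7628. In T4 against T3 Akr7a5 was the 1 called (0.28 ± 0.06, edgeR adjusted p = 0.02673), with a median of 0.00. Without animals 60 and 61 Akr7a5 missed the threshold at 0.20 (adjusted p = 0.3533). With sex as a covariate it missed at 0.26 (edgeR adjusted p = 0.1578).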

How the data were processed

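Liver RNA of 31 pups was measured by stranded mRNA sequencing, per the labels' protocols. The authors deposited 1 table of gene counts, whole numbers with differing library totals and no sign of normalization. No value is 0, and 50.1% of values are 1. Per the submitters' processing notes, bcl2fastq, Trimmomatic, BWA 0.7.10 and DESeq were used, with a human build named. The column names state mm10, and the counter and its use of strand are not given in the sources used here. Of the gene IDs, 97.3% matched GENCODE M21 (mm10), which gave positions and exonic lengths. Promoters came from RefSeq (GRCm38.p6).

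Groups followed the labels, and each replicate is 1 animal. Counts as deposited, the added 1 included, entered edgeR 4.0.16 under R 4.3.3. Library sizes were scaled with TMM factors (trimmed means of log ratios), and filterByExpr kept 17057 genes. The quasi-likelihood model (glmQLFit, then glmQLFTest) gave each group its own mean across the 31 libraries. P-values were adjusted by Benjamini-Hochberg across the genes tested, with a threshold of 0.05. The model was tested on simulated data. The members, lists and tests were chosen with earlier results of these data known. Named were all members, the 5 genes most like Akr1c18 and the 3 most like each other tested member (Pearson's r of log2 CPM, prior count 1, leaving out pseudogene, clone and unnamed features), up to 4 called genes per list and comparison, and Dio1, Dio2 and Pax8. DESeq2 1.42.0 and 14 other settings served as alternatives, 4 of them chosen after seeing the data, besides leaving out each library in turn. Coding sequences were aligned with Biopython 1.88.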

Additional observations from a re-analysis of the deposited data

Results flagged for a closer look

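Each of the 8 tested members was checked in each of the 5 groups, 40 checks in all, for a library whose distance to the next one was large against the group's whole range (Dixon's criterion). It marked 3 libraries, and chance marks about 1 in 20 groups. Control animal 42 had 3.30 CPM of Akr1c18 against 23.8 to 47.6 CPM in the other 4 controls. Control animal 47 had 219.7 CPM of Akr1c6 against 243.5 to 248.4 CPM in the others. T3+T4 animal 78, the library with 1479 summed acinar reads, had 129.0 CPM of Akr1c20 against 151.1 to 169.4 CPM in the others. The part of the acinar reads in this value was not tested.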

How the results depend on the processing

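Member values were recomputed over 15 alternatives and 31 fits that each left out 1 library. Of 3353 values with an adjusted p, 3336 kept their side of the threshold, 8 lost a call and 9 gained one. No called value changed sign, and 134 uncalled ones did. A further 690 values, of T4 against vehicle and of Akr1c18 where it was not tested, have no adjusted p. DESeq2 gave none for 5 members in T3+T4 against control. Akr1c18 kept its direction from vehicle under every alternative, from 2.40 to 2.71 on the log2 scale with T4, 3.67 to 4.12 with T3 and 3.50 to 3.96 with T3+T4. Vehicle against control ran from -3.34 to -2.81. All of these refits reuse T4 or vehicle libraries, by which Akr1c18 was chosen. They show the spread of its values and are no test of its response.

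In T3+T4 against vehicle the count of members called was 0 with no filter on low counts, 0 in animals 54 to 85 only, 0 without libraries with raised acinar or muscle markers, and 2 with log2 library total as a covariate, namely Akr1c20 and Akr1d1. In T3 against vehicle it was 0 in fits of only the groups compared, in animals 54 to 85 only, with the library total as a covariate and without raised acinar or muscle markers. In vehicle against control it was 1 in fits of only the groups compared and 1 without T3 animals 60 and 61, both times Akr1c14 (adjusted p = 0.04702 and 0.02527). In T3+T4 against T4 it was 1 with the library total as a covariate, Akr1d1. On leaving out 1 library, counts ran from 1 to 2 in T3 against vehicle, 0 to 1 in T3 against control and 0 to 1 in vehicle against control. They stayed at 1 in T3+T4 against vehicle and at 0 in the others. Fits with fewer libraries have fewer degrees of freedom: animals 54 to 85 hold 1 control and 2 vehicle libraries, so that number and group cannot be told apart. Elsewhere the cause was not tested. Calls over all genes changed with the setting too, and member and list counts are to be read beside them. In T3+T4 against vehicle 1251 genes were higher and 1441 lower with all libraries. These were 849 and 956 with the library total as a covariate, and 313 and 372 without raised acinar or muscle markers. In vehicle against control 839 were higher and 803 lower, and 380 and 309 without raised acinar or muscle markers. T3 against vehicle is given with the steroid list. The log2 difference of Star between T4 and T3 reversed without T3 animals 60 and 61, to 0.016.

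The 4 alternatives added after seeing the data were leaving out T3 animals 60 and 61, dropping the 12 libraries in which acinar or muscle markers were raised, leaving out 4 animals with differing sex labels, and a ceiling correction by transcript length. Akr1c18 with 8 to 27 counts in the vehicle libraries, 1 of each being the added count, limits the precision of its folds. No paired analysis was possible because the replicate numbers are animal numbers and no number occurs in more than 1 group.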
